A study of Mus musculus with 28 samples.

Results

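The mitochondrial genome of the mouse carries 37 genes, and all of them were in the deposited tables under symbols that begin with mt-. They are 13 protein-coding genes, 2 ribosomal RNA genes and 22 transfer RNA genes, out of 55487 gene identifiers in all. They were chosen by symbol alone, with no measured value. All 13 coding genes and both rRNAs passed the filter on low values (at least 1 TPM in at least 4 libraries), and 0 of the 22 tRNAs did. TPM is a transcript's share of a library per unit of length, scaled to a fixed total, so levels of different genes are compared per length.

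Both strands of mitochondrial DNA are transcribed as long polycistronic RNAs, and the tRNAs that lie between the other genes are cut out to release the mRNAs and rRNAs. The coding genes make core subunits of the respiratory chain (complexes I, III and IV) and of ATP synthase (complex V), and many nuclear genes supply the other subunits and the machinery that copies, processes and translates these RNAs. Mitochondrial mRNAs carry short poly(A) tails that also complete some of their stop codons, the rRNAs carry very short tails, mt-Nd6 RNA is known as largely untailed, and tRNAs end in CCA. In macrophages, IFN-γ is known to shift metabolism toward glycolysis, and IL-10 is known to favour oxidative phosphorylation.

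RNA came from 28 libraries of wild-type mouse bone marrow derived macrophages, macrophages grown in culture from marrow cells. M0 macrophages had 48 h without polarization, and the other 6 groups had 48 h with IFN-γ or with IL-10, each at 50 ng/mL. Under each cytokine, macrophages were co-cultured with T cells killed with ATP/NAD+ and stained with a dye-bound antibody to CD4, and were sorted into those that had taken up regulatory T cells (Treg-phagocytic), those that had taken up conventional CD4 T cells (Tconv-phagocytic) and those with no uptake (non-phagocytic). Each of the 7 groups had 4 libraries. The M0 labels name neither T cells nor a sort, so a comparison with M0 cannot tell the cytokine apart from co-culture and sorting. Nothing in the labels says that the 4 libraries of a group came from separate animals or cultures, so p-values measure the spread between these libraries, which may be technical. The dye in the titles (BV421 or Ax647) disagrees with the dye in the library names for all 8 Treg-phagocytic libraries, which are named here by their titles.

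The genes that the results turn on lie as follows in GRCm38 (the mm10 build named in the submitters' processing notes) with GENCODE vM21 annotation. The small-subunit rRNA gene mt-Rnr1 (ENSMUSG00000064337) spans chrM:70-1024 and the large-subunit rRNA gene mt-Rnr2 (ENSMUSG00000064339) spans chrM:1094-2675, both on the plus strand. mt-Nd6, at chrM:13552-14070, is the only coding gene on the minus strand, and 8 of the tRNA genes are on it too. The 3 tRNA genes that flank the rRNAs are shown whole, 5′ to 3′ on the plus strand, because they are the shortest kind of member and none had a value above 0. mt-Tf (chrM:1-68) precedes mt-Rnr1, mt-Tv (chrM:1025-1093) lies between the rRNAs, and mt-Tl1 (chrM:2676-2750) follows mt-Rnr2.
mt-Tf: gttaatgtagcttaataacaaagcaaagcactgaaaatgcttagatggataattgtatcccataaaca
mt-Tv: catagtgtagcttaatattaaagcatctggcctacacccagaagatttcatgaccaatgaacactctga
mt-Tl1: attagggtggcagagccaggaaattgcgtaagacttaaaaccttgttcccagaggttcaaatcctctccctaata

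A block of nuclear chromosome 1, chr1:24611535-24616197 on the minus strand, holds annotated pseudogene copies of 7 coding genes, and sequence decides whether a read can be told apart from its copy. The ends of mt-Co2 and mt-Nd4l and the start of mt-Nd3 are shown 5′ to 3′ on each gene's own strand. The start of mt-Nd3 holds a base that differs from its copy. The ends of mt-Co2 and mt-Nd4l show where their annotated copies stop, and the chromosome 1 sequence beyond was not compared. Far longer stretches of mt-Nd4 and mt-Co1 lie outside their annotated copies. The last 502 bases of mt-Nd4 lie beyond its copy Gm28439, and Gm29216 matches mt-Co1 only from base 1067. mt-Co2 (bases 635 to 684, chrM:7647-7696) and Gm28661 (chr1:24614885-24614931) were identical over 681 nt, and capitals mark the last 3 bases of the mitochondrial gene, which the annotated copy lacks. mt-Nd4l (chrM:10124-10173) and Gm10222 (chr1:24612407-24612453) were identical over 294 nt, and this annotated copy also lacks the last 3 bases. mt-Nd3 (chrM:9459-9486) and Gm28438 (chr1:24613092-24613119) differed within 345 nt at 1 base, T3C counted from the first base of the gene, which is in capitals.
mt-Co2: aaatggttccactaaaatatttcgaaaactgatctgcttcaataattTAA
Gm28661: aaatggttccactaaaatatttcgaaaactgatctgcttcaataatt
mt-Nd4l: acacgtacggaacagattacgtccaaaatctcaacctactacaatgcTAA
Gm10222: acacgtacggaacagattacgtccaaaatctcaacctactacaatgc
mt-Nd3: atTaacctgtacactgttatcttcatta
Gm28438: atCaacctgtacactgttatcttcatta

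The cytokine groups differed in depth and in markers of other cells. The files give no counts, and the depth relative to the deepest library, read from the step size of low values, ran from 11.2% to 24.3% with IFN-γ, from 49.1% to 90.4% with IL-10 and from 67.1% to 100% in M0. Under each cytokine depth was lower in Treg-phagocytic than in Tconv-phagocytic libraries, with no overlap. It ran from 11.2% to 19.8% against 20.9% to 24.3% with IFN-γ, and from 49.1% to 64.1% against 74.9% to 90.4% with IL-10. IFN-γ non-phagocytic libraries, at 18.3% to 22.6%, overlapped both IFN-γ groups. Between 14148 and 16295 genes were above 0 in a library with IFN-γ, and between 16942 and 18457 in one with IL-10. The 10 macrophage markers summed to group means of 17467 to 21294 TPM (17467 in IL-10 non-phagocytic and 21294 in IFN-γ Treg-phagocytic libraries), with none at 0. In IFN-γ against IL-10 non-phagocytic libraries 3 of these 10 were called higher and 7 lower (limma, adjusted p under 0.05). Of 4 tested neutrophil markers 2 were called higher and 0 lower there, where 25.5% of all genes were called higher and 25.9% lower. The 20 T cell markers summed to means of 208, 261 and 354 TPM in IL-10 non-phagocytic, Tconv-phagocytic and Treg-phagocytic libraries and of 834, 932 and 976 TPM in the same IFN-γ groups, with none at 0. The 7 B cell markers summed to means of at most 58.8 TPM without IFN-γ and of 97.7 to 103 TPM with it, and the 8 stromal markers to means of 25.6 to 134 TPM without it and of 2.35 to 4.21 TPM with it. In these bulk samples, fewer cells of a type and less RNA per cell cannot be told apart.

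The 3 classes of mitochondrial RNA held different shares and moved differently. The coding genes held 5.27% ± 0.203 of all TPM in M0 (SD, n = 4), between 4.67% and 4.95% in the IL-10 groups and 6.40%, 6.01% and 5.39% in IFN-γ non-phagocytic, Tconv-phagocytic and Treg-phagocytic libraries. The 2 rRNAs held 0.0532% in M0, 0.0574% to 0.0794% in the IL-10 groups and 1.91%, 1.95% and 0.664% in the same IFN-γ groups. Coding shares thus differed far less between the 7 groups than rRNA shares. Every IFN-γ library held several times the rRNA share of any M0 or IL-10 library. With the chromosome 1 copies added, the coding share was 8.85% in M0 and 7.59% to 7.70% in the IL-10 groups. It was 9.15%, 8.89% and 8.09% in IFN-γ non-phagocytic, Tconv-phagocytic and Treg-phagocytic libraries. The M0 mean then lay above the IFN-γ Treg-phagocytic mean, with overlapping libraries (8.28% to 9.20% and 7.95% to 8.33%). The tRNAs held 0%.

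All 22 tRNAs, from 59 to 75 nt long, were listed at 0 TPM in all 28 libraries. The same was true of the other short genes. Of 2447 genes of at most 100 nt in the tables, 0 were above 0 in any library. The share above 0 in any library was 0.937% of genes longer than 100 and up to 200 nt, 12.8% of those up to 300 nt and 25.6% of those up to 500 nt. The tables therefore say nothing about tRNA levels in any group, and with no counts there is no upper limit to give.

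The rRNAs showed the greatest differences among the members. They form the core of the mitochondrial ribosome, mt-Rnr1 in the small subunit and mt-Rnr2 in the large one. mt-Rnr1 stood at 249, 165, 195 and 171 TPM in the M0 libraries. It stood at 246, 247, 235 and 236 TPM in IL-10 non-phagocytic libraries and at 11222, 11628, 10420 and 11863 TPM in IFN-γ non-phagocytic libraries. The IFN-γ and IL-10 values were far apart and did not overlap, and those of IL-10 lay within the range of M0.

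mt-Rnr1 rose by 5.83 on the log2(scaled TPM + 1) scale (SE 0.05, limma, adjusted p = 1.12e-11) in IFN-γ against IL-10 non-phagocytic libraries, a TPM ratio of 46.9. mt-Rnr2 went from 341, 351, 330 and 309 TPM to 7814, 8019, 7288 and 8149 TPM in the same groups. This was a rise of 4.84 (SE 0.05, limma, adjusted p = 7.22e-11), a TPM ratio of 23.5. Against M0, the IFN-γ non-phagocytic rises were 6.13 (SE 0.12) for mt-Rnr1 and 4.81 (SE 0.07) for mt-Rnr2. Across 22 alternative settings the IFN-γ against IL-10 non-phagocytic rise of mt-Rnr1 ranged from 5.08 to 5.87 and kept its call in each.

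**Figure D1:**
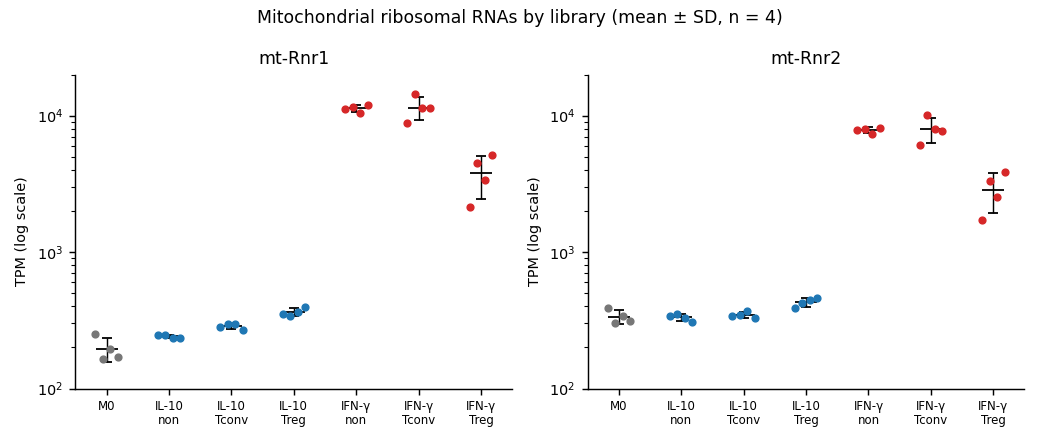
TPM (log axis) of mt-Rnr1 and mt-Rnr2 in each of the 28 libraries by group (points), with mean ± SD (n = 4). The 12 IFN-γ libraries, from 1708 TPM upward, lie above all 16 others, and the IFN-γ Treg-phagocytic libraries are the lowest of the 3 IFN-γ groups.

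Uptake of Treg cells went with lower rRNA under IFN-γ. mt-Rnr1 stood at 2133, 4482, 3380 and 5131 TPM in IFN-γ Treg-phagocytic libraries and at 8842, 14281, 11386 and 11304 TPM in IFN-γ Tconv-phagocytic libraries. mt-Rnr2 stood at 1708, 3340, 2531 and 3856 TPM against 6131, 10152, 8020 and 7691 TPM. The highest Treg-phagocytic library lay below the lowest Tconv-phagocytic and non-phagocytic libraries for both genes. The Treg-phagocytic libraries also spread widely among themselves. They had lower depth than the Tconv-phagocytic libraries, and its part was not tested.

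Against Tconv-phagocytic libraries mt-Rnr1 fell by 1.56 (SE 0.28, limma, adjusted p = 0.0108) and mt-Rnr2 fell by 1.43 (SE 0.27, adjusted p = 0.0123). Against non-phagocytic libraries the falls were 1.61 (SE 0.26, limma, adjusted p = 0.0103) and 1.48 (SE 0.24, adjusted p = 0.0109). IFN-γ Tconv-phagocytic and non-phagocytic libraries overlapped, with log2 differences of -0.05 (adjusted p = 0.959) and -0.04 (adjusted p = 0.969). The Treg against Tconv difference of mt-Rnr1 ranged from -1.78 to -1.29 over 25 alternatives and lost its call in 3 of them, which were testing with no filter (adjusted p = 0.0547), the BV421 libraries alone (adjusted p = 0.30) and the Ax647 libraries alone (adjusted p = 0.20). The same 3 alternatives ended the call of mt-Rnr2. Each dye alone leaves 2 libraries a group.

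Under IL-10 the order of the populations was the reverse, with much smaller steps. mt-Rnr1 stood at 352, 342, 364 and 398 TPM in IL-10 Treg-phagocytic libraries and at 282, 299, 297 and 269 TPM in IL-10 Tconv-phagocytic libraries. mt-Rnr2 stood at 392, 420, 444 and 464 TPM against 343, 344, 371 and 330 TPM. The groups did not overlap for either gene.

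mt-Rnr1 rose by 0.34 (SE 0.05, limma, adjusted p = 0.0172) and mt-Rnr2 by 0.31 (SE 0.05, adjusted p = 0.0358) from Tconv-phagocytic to Treg-phagocytic libraries. These calls were fragile. In 1 model of all 28 libraries both adjusted p-values were 1. Leaving out single libraries ended the call of mt-Rnr1 in 3 of 8 cases, with adjusted p = 0.0638 without the Tconv library BV421-1, 0.0547 without Tconv Ax647-2 and 0.0609 without Treg BV421-1. The call of mt-Rnr2 ended in 6 of 8 cases, at an adjusted p of 0.0809 to 0.117, and only the removal of Tconv Ax647-1 or Treg Ax647-1 kept it. Against IL-10 non-phagocytic libraries, Treg-phagocytic libraries were higher by 0.67 for mt-Rnr1 (SE 0.04, limma, adjusted p = 8.62e-05) and by 0.45 for mt-Rnr2 (SE 0.06, adjusted p = 0.00191), and Tconv-phagocytic libraries by 0.33 for mt-Rnr1 (SE 0.04, adjusted p = 0.00176). In the model of all 28 libraries, the mt-Rnr2 rise had an adjusted p of 0.156 and the Tconv rise of mt-Rnr1 one of 0.766.

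Other lists moved with these IL-10 rRNA steps, and their part was not tested. From Tconv-phagocytic to Treg-phagocytic libraries, 6 of 6 tested stromal markers were called lower (summed means of 134 and 25.6 TPM, with Lum at 0 in both). Called higher were 2 of 20 T cell markers and 0 of 13 nuclear RNAs listed as untailed. Of all genes, 0.462% were called higher and 0.924% lower. From non-phagocytic to Treg-phagocytic libraries, 20 of 20 T cell markers and 5 of the same 13 RNAs were called higher and 5 of 6 stromal markers lower, where 6.92% of all genes were called higher and 4.45% lower.

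The difference between the cytokines in the Treg against Tconv step was itself tested. It was -1.90 for mt-Rnr1 (SE 0.29, limma interaction term, adjusted p = 0.00047) and -1.74 for mt-Rnr2 (SE 0.28, adjusted p = 0.000656), and both stayed past the threshold in all 30 alternatives. In IL-10 non-phagocytic libraries against M0, mt-Rnr1 differed by 0.31 (SE 0.11, limma, adjusted p = 0.0775) and mt-Rnr2 by -0.03 (adjusted p = 0.831). Without M0 library 1, which held 249 TPM, the mt-Rnr1 difference was 0.42 with an adjusted p of 0.00121.

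Nuclear RNAs from a list drawn up for having no poly(A) tail were higher in the same libraries. Of the 24 listed, 13 passed the filter, 9 were at 0 in all libraries of M0 and 9 to 11 in each other group. Beside structural RNAs the list holds histone genes (Hist1h1c, Hist1h2bc, Hist1h4i, Hist2h2aa1, Hist1h2bg and Hist1h1e), none of them at 0 throughout a group. Whether these histone RNAs lack a tail in these cells was not tested, so the counts below need not be of untailed RNAs alone. Rn7s1 and Rn7s2, with equal values in all 28 libraries, are both counted, so the counts below are not of independent RNAs. The summed level of the 24 listed RNAs was 866 TPM in M0 (range 689 to 1163). It was 1009, 1262 and 1403 TPM in IL-10 non-phagocytic, Tconv-phagocytic and Treg-phagocytic libraries, and 4708, 4318 and 4924 TPM in the same IFN-γ groups. Both Rn7s1 and Rn7s2 are in the sum. Rn7s1 alone stood at 1769 to 1919 TPM in IFN-γ non-phagocytic libraries, so this pair made up most of the sum there. In IFN-γ against IL-10 libraries, 11 of the 13 were called higher and 0 lower in non-phagocytic cells, where 51.4% of all 13631 genes tested were called (25.5% higher and 25.9% lower), and 10 and 0 in both phagocytic populations (17% of all genes called higher and 21.3% lower in Treg-phagocytic, 25.9% and 26.6% in Tconv-phagocytic cells). Their median log2 difference was 2.47 in non-phagocytic cells, against -0.02 over all genes tested.

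In IFN-γ Treg-phagocytic against Tconv-phagocytic libraries, 1 of the 13 listed nuclear RNAs was called higher and 1 lower. The median of the 13 was 0.24 against 0.01 over all genes (3.87% called higher and 7.83% lower). The levels of 3 of them, chosen after their values were seen, follow. Rn7sk, the scaffold RNA that holds a transcription elongation factor inactive, stood at 353, 396, 292 and 400 TPM in non-phagocytic, at 343, 600, 419 and 386 TPM in Tconv-phagocytic and at 118, 290, 195 and 271 TPM in Treg-phagocytic libraries. The Treg-phagocytic libraries were the lowest here too, and in each phagocytic group the library lowest in mt-Rnr1 was also the lowest in Rn7sk. Rn7s1, an RNA of the signal recognition particle whose values equalled those of its copy Rn7s2 in all 28 libraries, had means of 1871, 1654 and 2057 TPM in the same 3 groups. Rpph1, the RNA of nuclear RNase P, had means of 61.5, 50.5 and 72.3 TPM. These 2 were highest in the Treg-phagocytic group, where mt-Rnr1 was lowest.

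Of 354 nuclear genes annotated as rRNA, 1 passed the filter, and it is named here after its values were seen. This gene, CT010467.1 at chr17:39846353-39848827 on the minus strand, had means of 914 TPM in M0, 1142, 1486 and 2085 TPM in IL-10 non-phagocytic, Tconv-phagocytic and Treg-phagocytic libraries and 9387, 8651 and 10666 TPM in the same IFN-γ groups. All 12 IFN-γ libraries, from 8322 TPM upward, lay above all others, at most 2176 TPM. Unlike both mitochondrial rRNAs it was highest in IFN-γ Treg-phagocytic libraries, whose lowest value of 9999 TPM lay above the highest value of either other IFN-γ group, 9769 TPM. Depth, T cell markers and the listed nuclear RNAs all moved with the cytokine, as did the mitochondrial rRNAs. Depth also differed between Treg-phagocytic and Tconv-phagocytic libraries. The part of these in the rRNA results was not tested.

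**Figure D2:**
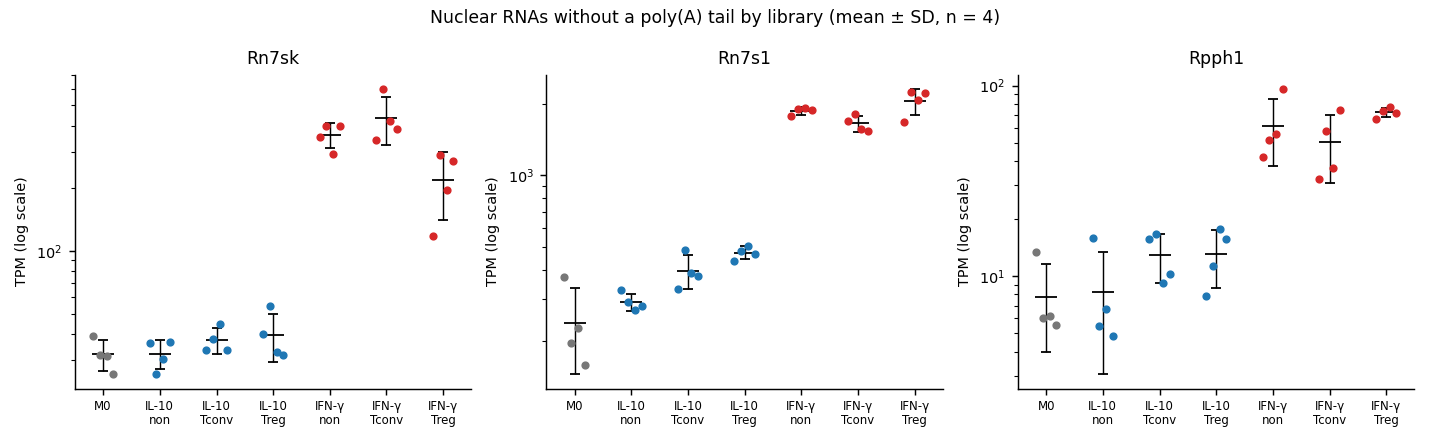
TPM (log axis) of 3 nuclear RNAs without a poly(A) tail, Rn7sk, Rn7s1 and Rpph1, in each of the 28 libraries by group (points), with mean ± SD (n = 4). Each is higher in IFN-γ than in IL-10 and M0 libraries, and only the Rn7sk mean is lowest in the Treg-phagocytic libraries among the IFN-γ groups.

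The 2 rRNAs also changed relative to each other. The mt-Rnr1 to mt-Rnr2 ratio of TPM within a library was 0.576 ± 0.0462 in M0 (SD, n = 4), 0.725, 0.827 and 0.847 in IL-10 non-phagocytic, Tconv-phagocytic and Treg-phagocytic libraries, and 1.44, 1.43 and 1.31 in the same IFN-γ groups. The lowest IFN-γ library, at 1.25, lay above the highest IL-10 library, at 0.899. Such a ratio does not depend on the scaling between libraries.

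Among the coding genes as deposited, mt-Atp8, a small ATP synthase subunit, and mt-Co1, the catalytic subunit of complex IV, stood highest per length in M0, at 16690 ± 799 and 11888 ± 437 TPM (SD, n = 4). mt-Cytb, the only mitochondrial subunit of complex III, followed at 5782 TPM. mt-Co2, mt-Nd4 and mt-Nd1 came next at 3748, 3009 and 2904 TPM, with overlapping libraries. mt-Nd2, mt-Nd4l, mt-Nd5 and mt-Nd6 then stood at 2129, 1912, 1491 and 1316 TPM. mt-Co3, mt-Nd3 and mt-Atp6 were last at 788, 570 and 483 TPM and overlapped. The high mt-Atp8 value belongs to a gene of 204 nt that overlaps mt-Atp6 on the genome (chrM:7766-7969 and chrM:7927-8607), where reads cannot be assigned to 1 gene. In all 28 libraries the step size of low values was read with 200 nt taken off each gene's length. This leaves little of 204 nt, so the rank of mt-Atp8 per length is uncertain. The ranks of mt-Nd4l (297 nt) and mt-Nd3 (348 nt) share this limit to a lesser degree. In IFN-γ non-phagocytic libraries mt-Co2 overlapped mt-Atp8 at the top of the order, with 17724 and 16354 TPM. The order in M0 changed once the nuclear copies described next were added. mt-Atp8 was then followed by mt-Co2 at 15611 TPM (14784 to 16194, overlapping mt-Atp8) and mt-Co1 at 12820 TPM. mt-Atp6 and mt-Co3, at 9439 and 8945 TPM, overlapped each other and stood above mt-Cytb, and mt-Nd3 was last at 1236 TPM and overlapped mt-Nd6.

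The nuclear copies changed what the deposited values of 6 coding genes mean. Beside the pairs shown above, Gm10925 was identical to mt-Atp6 over 678 nt, Gm28437 to mt-Co3 over 783 nt, Gm29216 to mt-Co1 over 479 nt at its 3′ end, and Gm28439 to mt-Nd4 over 876 nt, but Gm28439 was at 0 in all libraries. The listed copies together held 3.58% of TPM in M0 and 2.65% to 2.94% in the other groups. mt-Co2 was listed at 24.0% of the summed level of the gene and its copy in M0, at 32.7% in IL-10 and at 83.9% in IFN-γ non-phagocytic libraries. For mt-Co3 the listed share ranged from 8.89% in M0 to 31.7% in IFN-γ Treg-phagocytic libraries.

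Adding a copy's level to its gene, weighted by length, reduced the spread between libraries of 1 group. The mean within-group coefficient of variation fell from 48.9% to 4.60% for mt-Co3, from 41.7% to 9.47% for mt-Nd3, from 25% to 6.72% for mt-Nd4l, from 22.6% to 4.55% for mt-Atp6 and from 13.4% to 3.81% for mt-Co2. It was 3.99% and 4.29% for mt-Co1. The 7 coding genes with no copy above 0 had 3.12% (mt-Cytb) to 6.47% (mt-Nd6). Deposited and combined values are given below. The combined setting was chosen after seeing the data.

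**Figure D3:**
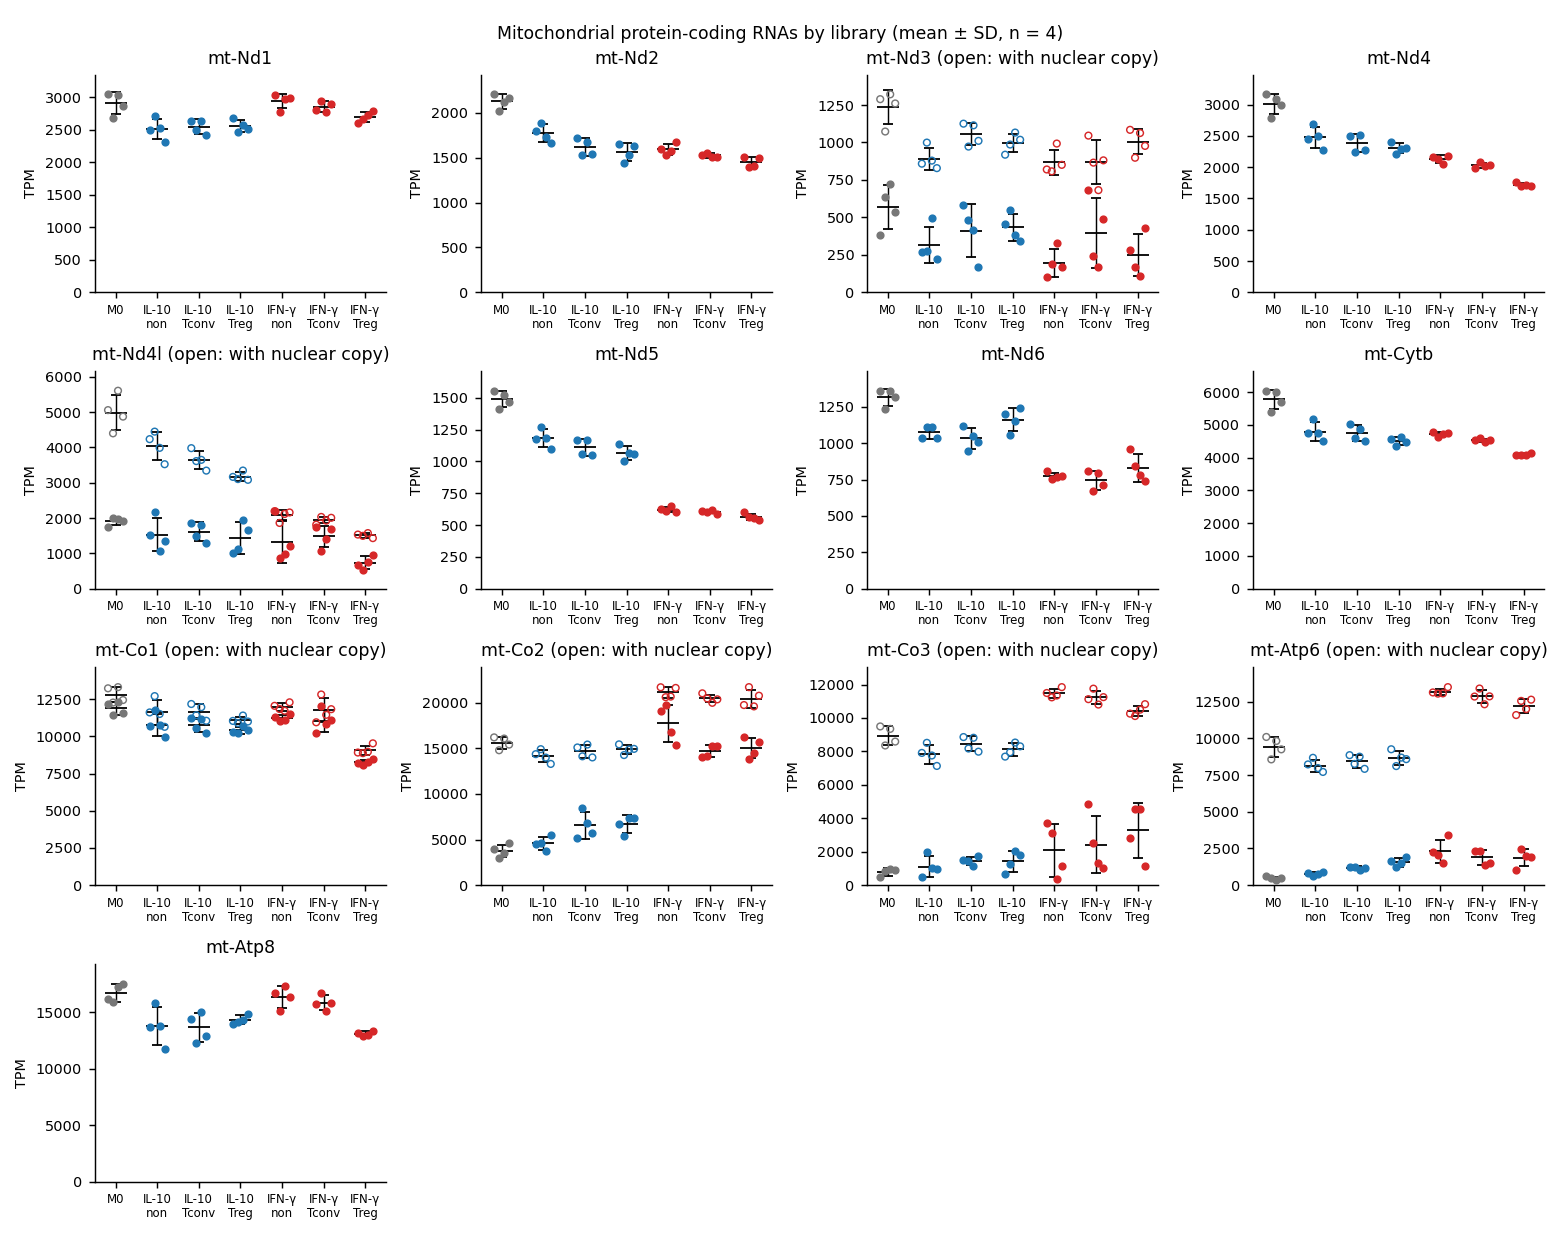
TPM of the 13 coding genes in each of the 28 libraries by group, from 0 on each axis, with mean ± SD (n = 4). Filled points are the deposited values and open points add the nuclear copy for mt-Nd3, mt-Nd4l, mt-Co1, mt-Co2, mt-Co3 and mt-Atp6, where the open points of mt-Co3 and mt-Atp6 lie several times above the filled ones and scatter less in proportion.

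The clearest coding change was in mt-Nd5, a membrane-arm subunit of complex I that pumps protons. It stood at 1555, 1416, 1521 and 1471 TPM in M0, at 1174, 1272, 1181 and 1101 TPM in IL-10 non-phagocytic and at 627, 607, 653 and 603 TPM in IFN-γ non-phagocytic libraries. These 3 groups did not overlap, and the highest of the 12 IFN-γ libraries lay well below the lowest of the 12 IL-10 libraries, 1003 TPM.

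mt-Nd5 fell by 0.64 in IFN-γ against IL-10 non-phagocytic libraries (SE 0.04, limma, adjusted p = 3.54e-06), by 0.73 in Tconv-phagocytic (SE 0.05, adjusted p = 2.14e-06) and by 0.67 in Treg-phagocytic ones (SE 0.04, adjusted p = 7.87e-06). It fell by 0.99 against M0 (SE 0.04, adjusted p = 1.38e-07). In each of these comparisons it kept its call under all 22 alternatives, with the fall as large as 1.13, 1.16 and 0.97 in the 3 populations after correction for GC content and length. The mt-Nd5 to mt-Nd1 ratio within a library was 0.514 in M0, 0.471, 0.436 and 0.418 in IL-10 non-phagocytic, Tconv-phagocytic and Treg-phagocytic libraries, and 0.212, 0.212 and 0.211 in the same IFN-γ groups. The IFN-γ populations had nearly the same ratio, 0.195 to 0.230 over 12 libraries, all below the lowest IL-10 library, 0.408.

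mt-Nd6, the complex I subunit encoded on the other strand, also fell under IFN-γ. It stood at 1038, 1110, 1109 and 1036 TPM in IL-10 and at 806, 751, 766 and 775 TPM in IFN-γ non-phagocytic libraries, with no overlap. It fell by 0.18 (SE 0.04, limma, adjusted p = 0.00371), by 0.32 in Tconv-phagocytic (SE 0.08, adjusted p = 0.00591) and by 0.25 in Treg-phagocytic libraries (SE 0.07, adjusted p = 0.0278). The Treg-phagocytic call was lost in 5 of 8 cases when 1 library was left out, with adjusted p-values of 0.0681 and 0.0652 without IFN-γ BV421-1 and BV421-2, and of 0.0779, 0.0621 and 0.0800 without IL-10 Ax647-1, BV421-1 and BV421-2. With correction for GC content and length the falls were 1.08, 1.13 and 0.75. The submitters' notes give no strand setting, so reads of the opposite strand may be counted in mt-Nd6, which was not tested. On the deposited scale mt-Nd6 was lowered less than mt-Nd5, and the mt-Nd6 to mt-Nd5 ratio within a library went from 0.909 to 1.25 in non-phagocytic, from 0.929 to 1.23 in Tconv-phagocytic and from 1.09 to 1.46 in Treg-phagocytic libraries. The plot of ratios within a library shows both.

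**Figure D4:**
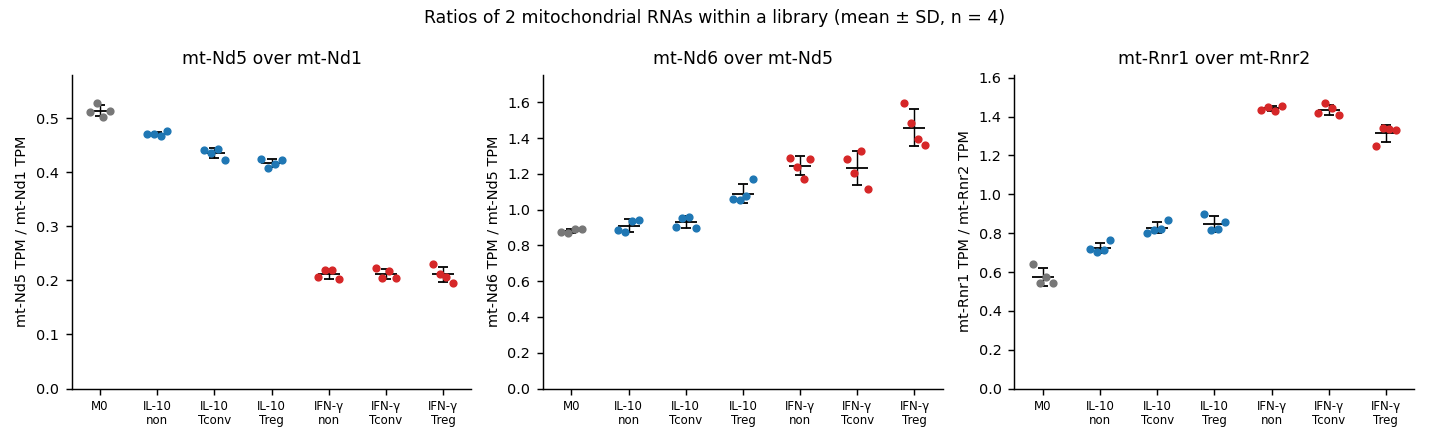
TPM ratios within each of the 28 libraries (points) by group, with mean ± SD (n = 4), for mt-Nd5 over mt-Nd1, mt-Nd6 over mt-Nd5 and mt-Rnr1 over mt-Rnr2, from 0 on each axis. The 12 IFN-γ libraries are at 0.195 to 0.230 in the first panel, below all others, and at 1.25 or above in the third, above all others.

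mt-Nd1, the complex I subunit that forms part of the quinone site, moved the other way. It stood at 2498, 2702, 2526 and 2313 TPM in IL-10 and at 3026, 2773, 2974 and 2985 TPM in IFN-γ non-phagocytic libraries. The IFN-γ libraries were all higher, with a rise of 0.52 (SE 0.05, limma, adjusted p = 2.79e-05), and it rose by 0.31 in Tconv-phagocytic (SE 0.04, adjusted p = 0.000168) and 0.32 in Treg-phagocytic libraries (SE 0.05, adjusted p = 0.000762). This direction rests on the scale: correction for GC content and length turned it to -0.17, -0.30 and -0.14. M0 libraries stood at 2682 to 3041 TPM and overlapped those of IFN-γ.

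The remaining complex I genes were less settled. mt-Nd2 had group means of 1774 TPM in IL-10 and 1597 TPM in IFN-γ non-phagocytic libraries, and its called log2 difference of 0.14 (SE 0.04, limma, adjusted p = 0.0315) became -0.15 with no scaling. mt-Nd4, whose means were 2478 and 2132 TPM, differed by 0.07 (adjusted p = 0.262) although its libraries did not overlap on TPM, and fell by 0.18 in Treg-phagocytic libraries (SE 0.03, adjusted p = 0.00307). mt-Nd4l differed by 0.02 as deposited (SE 0.30, adjusted p = 0.969), with its 4 IFN-γ libraries at 2196, 881, 977 and 1215 TPM.

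Combined with its copy, mt-Nd4l stood at 4236, 4449, 3989 and 3526 TPM in IL-10 and at 2196, 1863, 2118 and 2160 TPM in IFN-γ non-phagocytic libraries, which did not overlap. It then fell by 0.67 (SE 0.08, limma, adjusted p = 8.83e-05), by 0.76 in Tconv-phagocytic (SE 0.05, adjusted p = 4.28e-06) and by 0.83 in Treg-phagocytic libraries (SE 0.03, adjusted p = 9.59e-07). mt-Nd3 differed by -0.45 as deposited (SE 0.34, adjusted p = 0.30) and by 0.25 combined (SE 0.07, adjusted p = 0.0193), so its direction depended on the copy.

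In complex IV, mt-Co2, the subunit that takes electrons from cytochrome c, stood at 4475, 4663, 3776 and 5489 TPM in IL-10 and at 19105, 19747, 16729 and 15314 TPM in IFN-γ non-phagocytic libraries as deposited. Combined with Gm28661 it stood at 14355, 14900, 13980 and 13284 TPM against 21685, 20603, 20662 and 21613 TPM. The groups did not overlap on either reckoning, but the deposited difference was far greater.

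mt-Co2 rose by 2.24 as deposited (SE 0.12, limma, adjusted p = 6.17e-07) and by 0.87 combined (SE 0.04, adjusted p = 1.89e-07). In Tconv-phagocytic libraries the rises were 1.34 and 0.63, and in Treg-phagocytic libraries 1.42 and 0.70, all called. Gm28661 alone had means of 9571 TPM in IL-10 and 3432 TPM in IFN-γ non-phagocytic libraries, the opposite order to mt-Co2. mt-Co3 differed by 0.85 as deposited (SE 0.74, adjusted p = 0.369), where its IFN-γ libraries ran from 339 to 3725 TPM. Combined, it stood at 7130 to 8513 TPM in IL-10 and 11232 to 11844 TPM in IFN-γ libraries and rose by 0.84 (SE 0.05, limma, adjusted p = 1.05e-06).

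mt-Co1 stood at 10714, 11757, 10779 and 9933 TPM in IL-10 and at 11280, 11032, 11128 and 11537 TPM in IFN-γ non-phagocytic libraries. These overlapped, and its called rise of 0.35 (SE 0.05, limma, adjusted p = 0.000237) turned to -0.12 with correction for GC content and length. With its copy the rise was 0.33 (SE 0.05, adjusted p = 0.000378). mt-Cytb had means of 4794 and 4721 TPM, and its called log2 difference of 0.27 (SE 0.04, adjusted p = 0.000458) turned to -0.02 with no scaling.

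In ATP synthase, mt-Atp6, the subunit of the proton channel, stood at 815, 599, 753 and 875 TPM in IL-10 and at 2262, 2072, 1479 and 3391 TPM in IFN-γ non-phagocytic libraries as deposited. Combined with Gm10925 it stood at 8229, 8681, 7980 and 7717 TPM against 13136, 13056, 13071 and 13498 TPM. It rose by 1.83 as deposited (SE 0.23, limma, adjusted p = 0.000173) and by 0.98 combined (SE 0.03, adjusted p = 6.14e-08), with no overlap. In Tconv-phagocytic libraries the rises were 0.79 and 0.75. In Treg-phagocytic libraries the deposited difference of 0.46 was not called (adjusted p = 0.212), and the combined rise was 0.74 (SE 0.06, adjusted p = 2.86e-05). mt-Atp8 had means of 13755 and 16354 TPM with overlapping libraries, and its called rise of 0.54 (SE 0.08, adjusted p = 0.000461) turned to -0.44 with correction for GC content and length.

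With copies included, mt-Co2 (chrM:7013-7696), mt-Atp6 and mt-Co3 (chrM:8607-9390) had the largest rises of the 13 in IFN-γ against IL-10 non-phagocytic libraries, 0.84 to 0.98. mt-Atp8, which lies between mt-Co2 and mt-Atp6, had the smaller rise of 0.54 given above. mt-Nd4l (chrM:9877-10173), mt-Nd5 (chrM:11742-13565) and mt-Nd6 were the 3 genes called lower on this trimmed-mean scale, and other scales lowered more genes. mt-Nd3 (chrM:9459-9806), mt-Nd4 and mt-Cytb had differences of 0.25, 0.07 and 0.27. As a share of the 13 coding genes with copies, mt-Co2 went from 19.1% to 23.5%, mt-Atp6 from 11% to 14.7%, mt-Nd4l from 5.45% to 2.32% and mt-Nd5 from 1.59% to 0.693%. mt-Nd1 held 3.38% and 3.27%.

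Over the whole class, 7 of 13 coding genes were called higher and 2 lower in IFN-γ against IL-10 non-phagocytic libraries, where 51.4% of all genes tested were called (25.5% higher and 25.9% lower). Combined with copies it was 9 higher and 3 lower. The median coding log2 difference was 0.27, against -0.02 over all genes. In Treg-phagocytic cells 4 were higher and 3 lower (17% of all genes called higher and 21.3% lower, 38.3% in all), or 7 and 4 combined. In Tconv-phagocytic cells 5 were higher and 2 lower (25.9% of all genes called higher and 26.6% lower, 52.5% in all), or 6 and 3 combined. The shares of the 13 called as deposited were thus at or somewhat above those over all genes.

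The split between higher and lower calls depended on the scale. The mean log2 scaling factor of the IFN-γ libraries was -0.29 relative to the IL-10 libraries in non-phagocytic, -0.24 in Treg-phagocytic and -0.15 in Tconv-phagocytic cells, and division by it raised the IFN-γ values by as much. With no scaling the calls were 4 higher and 4 lower, 1 and 7, and 4 and 3 in these 3 populations. With correction for GC content and length they were 2 and 9, 1 and 9, and 1 and 9. On TPM itself, the libraries did not overlap for 3 higher and 3 lower genes in non-phagocytic, 1 and 7 in Treg-phagocytic and 4 and 3 in Tconv-phagocytic cells. The share over all genes was not counted for alternative settings or for non-overlap, here or below. These counts therefore do not tell the coding genes apart from other genes. The falls of mt-Nd5 and mt-Nd6 and the rise of mt-Co2 kept their direction under each of these settings.

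**Figure D5:**
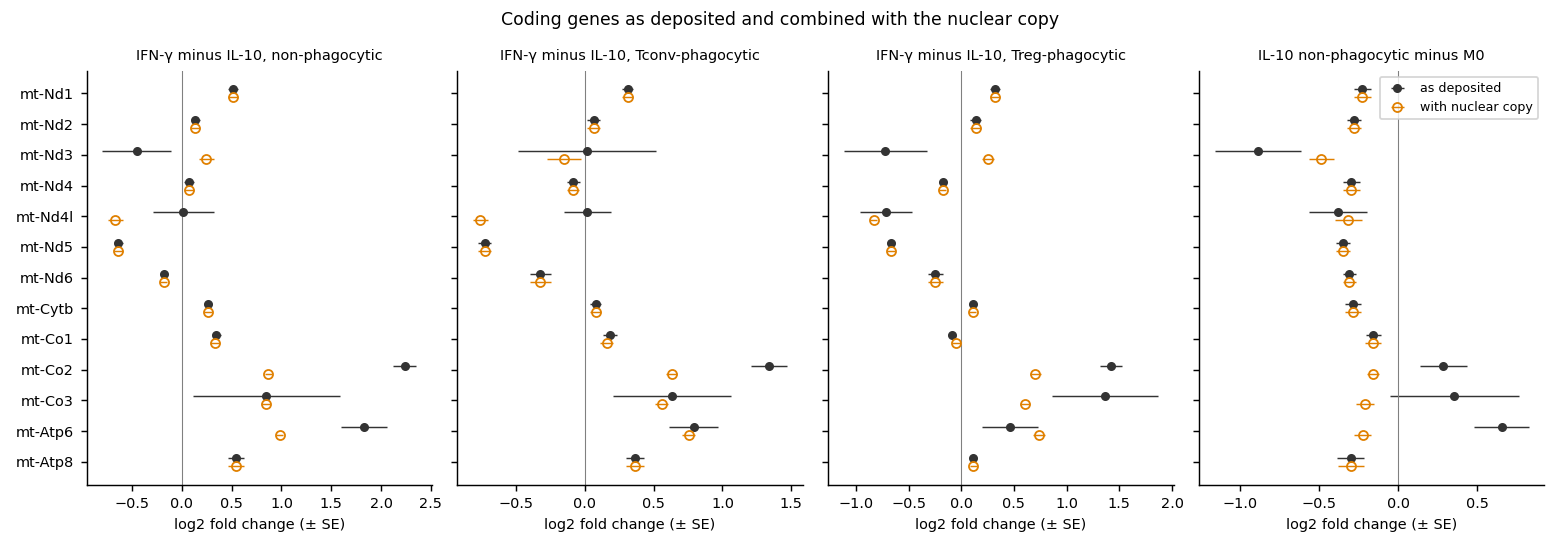
Log2 fold change ± SE (scaled TPM + 1) of the 13 coding genes in IFN-γ minus IL-10 libraries of the non-phagocytic, Tconv-phagocytic and Treg-phagocytic populations, and in IL-10 non-phagocytic minus M0 libraries. Filled points are the deposited values and open points add the nuclear copy, which brings mt-Co2 from 2.24 to 0.87 in the first panel and moves mt-Nd4l left of 0 in the first 2 panels.

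Against M0, the IL-10 non-phagocytic libraries were lower in most coding genes. As deposited, 9 of 13 were called lower and 1 higher, where 26.6% of all genes tested were called (13.8% higher and 12.9% lower). With copies included, 12 were called lower and 0 higher, and mt-Co1 was not called (-0.16, limma, adjusted p = 0.054). The fall ran from 0.16 for mt-Co2 (SE 0.04) to 0.48 for mt-Nd3 (SE 0.08), with a median coding difference of -0.29 against 0.00 over all genes. mt-Nd2, mt-Nd4, mt-Nd5, mt-Nd6, mt-Cytb and mt-Atp8 did not overlap between the groups on TPM. The only deposited rise, of mt-Atp6 by 0.65 (SE 0.17, adjusted p = 0.0227), turned to -0.23 with its copy. Without M0 library 4, or without IL-10 non-phagocytic library 1, 6 of the 10 deposited calls were left. With 1 library left out, the mt-Co1 call was lost in 7 of 8 cases, that of mt-Nd3 in 6 and those of mt-Atp8 and mt-Atp6 in 4 each. The mean log2 scaling factors of these groups differed by 0.01.

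In IFN-γ non-phagocytic libraries against M0, 5 coding genes were called higher and 5 lower, where 53.1% of all genes tested were called (26.4% higher and 26.7% lower), and 6 and 6 combined. The combined rises were mt-Co2 0.71, mt-Atp6 0.76, mt-Co3 0.63, mt-Nd1 0.29, mt-Atp8 0.24 and mt-Co1 0.17. The combined falls were mt-Nd4l by 0.98, mt-Nd5 by 0.99, mt-Nd6 by 0.49, mt-Nd3 by 0.24, mt-Nd4 by 0.22 and mt-Nd2 by 0.14. With no scaling the deposited calls were 2 higher and 7 lower, and with correction for GC content and length 2 and 10. The called rises of mt-Co1 and mt-Atp8 went against their TPM means, which were higher in M0.

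Between IFN-γ populations, Treg-phagocytic libraries were lower in several coding genes. Their depth was also lower than that of the Tconv-phagocytic libraries, and its part was not tested. Against Tconv-phagocytic libraries 4 of 13 were called lower and 0 higher, where 11.7% of all genes tested were called (3.87% higher and 7.83% lower), and the counts were the same with copies. mt-Co1 stood at 8185, 8106, 8249 and 8501 TPM against 10251, 12035, 10812 and 11107 TPM, with no overlap. It fell by 0.32 (SE 0.05, limma, adjusted p = 0.00703), or by 0.28 with its copy (SE 0.06, adjusted p = 0.0166). mt-Nd4l fell by 0.94 as deposited and by 0.27 combined (SE 0.04, adjusted p = 0.00412), mt-Atp8 by 0.18 (adjusted p = 0.0384) and mt-Nd4 by 0.15 (adjusted p = 0.0189).

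These 4 calls varied with the setting. Without the Tconv library Ax647-2, or without Treg BV421-1, 1 of the 4 was called, and without Tconv BV421-1, Treg Ax647-1 or Treg Ax647-2, 2 were. With correction for GC content and length 3 were called higher and 1 lower, and mt-Atp8 turned to 0.32. Against IFN-γ non-phagocytic libraries 4 were called lower and 0 higher (2.1% of all genes called higher and 5.9% lower, 8% in all), mt-Co1 by 0.41, mt-Atp8 by 0.28, mt-Nd4 by 0.27 and mt-Cytb by 0.16. The mt-Cytb call was lost in 10 of 20 alternatives, among them 6 of the 8 that left out 1 library (adjusted p up to 0.0741), and it was kept only without non-phagocytic library 3 or Treg BV421-2. Between IFN-γ Tconv-phagocytic and non-phagocytic libraries limma called 0 coding genes, where 0.00734% of all genes were called (0% higher), 6 had an unadjusted p under 0.05, and each of the 20 alternatives also called 0.

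Under IL-10 the populations differed little in coding genes. Between Treg-phagocytic and Tconv-phagocytic libraries limma called 0 of 13 (0.462% of all genes called higher and 0.924% lower, 1.39% in all), with 2 at an unadjusted p under 0.05 and 0 called in each of the 25 alternatives. Against non-phagocytic libraries, Treg-phagocytic libraries were called higher for mt-Co2 (0.63), mt-Atp6 (1.11) and mt-Nd6 (0.19), where 11.4% of all genes were called (6.92% higher and 4.45% lower). The mt-Nd6 call was lost in 13 of 20 alternatives, among them 7 of the 8 that left out 1 library, where only the one without Treg Ax647-2 kept it (adjusted p of 0.0721 to 0.115 in the others). With copies the mt-Co2 rise was 0.16 (SE 0.04, adjusted p = 0.0325), mt-Atp6 was not called (0.17, adjusted p = 0.054), mt-Nd3 rose by 0.24 and mt-Nd4l fell by 0.26. Without IL-10 non-phagocytic library 1, Treg BV421-1 or Treg BV421-2, 1 of these 3 deposited calls was left, and correction for GC content and length gave 2 higher and 3 lower. Tconv-phagocytic against non-phagocytic libraries gave 1 deposited call, mt-Atp6 (0.73, with 4.39% of all genes called higher and 1.75% lower, 6.14% in all), which had an adjusted p of 0.191 in 1 model of all 28 libraries and with its copy was 0.14 (adjusted p = 0.137).

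The difference between the cytokines in the Treg against Tconv step was called for 2 coding genes, where 13.3% of all genes were called (4.78% higher and 8.51% lower). It was -0.27 for mt-Co1 (SE 0.06, limma interaction term, adjusted p = 0.00697) and -0.25 for mt-Atp8 (SE 0.08, adjusted p = 0.0365). The mt-Co1 call was kept when each library was left out in turn. The mt-Atp8 call was lost in 12 of those 16 cases, and its value turned to 0.28 with correction for GC content and length.

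Nuclear genes that make and handle mitochondrial RNA were called in both directions. Of 17 tested genes of mitochondrial transcription and replication, 4 were called higher and 4 lower in IFN-γ against IL-10 non-phagocytic libraries, where 51.4% of all genes tested were called (25.5% higher and 25.9% lower). Polrmt, the mitochondrial RNA polymerase, stood at 7.47 and 15.9 TPM and fell by 0.76 (SE 0.23, limma, adjusted p = 0.0218), and Polg2, the accessory subunit of the DNA polymerase, stood at 20.1 and 6.10 TPM and rose by 1.83 (SE 0.10). Of 30 genes of mitochondrial RNA processing and turnover, 5 were called higher and 9 lower, with a median difference of -0.27 against -0.02 over all genes. The shares called in either direction were near or below that over all genes for these lists.

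Slirp, which with Lrpprc stabilises mitochondrial mRNAs, stood at 111 TPM in IFN-γ and 32.2 TPM in IL-10 non-phagocytic libraries and rose by 2.03 (SE 0.10). Among IFN-γ populations Slirp followed the order of the mitochondrial rRNAs. It stood at 63.9 TPM in Treg-phagocytic against 137 TPM in Tconv-phagocytic libraries, a fall of 1.00 (SE 0.10, limma, adjusted p = 0.0016). Of the 30 RNA processing genes, 0 were called higher and 1, Slirp, lower in this comparison. Of all genes, 3.87% were called higher and 7.83% lower there. A link between Slirp and the rRNAs was not tested. Supv3l1, a helicase of mitochondrial RNA decay, fell by 0.91 (SE 0.21) in IFN-γ against IL-10 non-phagocytic libraries. Of the 22 genes of tRNA charging in mitochondria, 1 was called higher and 8 lower, in all a smaller share than the 51.4% over all genes. The gene that rose was Lars2, the leucyl-tRNA synthetase, with 550 against 81.7 TPM and a rise of 3.04 (SE 0.11). Of 10 tested regulators of mitochondrial biogenesis, 4 were called higher and 2 lower, near the share over all genes, with Tfeb the most raised (1.03) and Tfe3 the most lowered (-0.54).

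The 35 nuclear subunits that join the mitochondrial ones in complexes I, III, IV and V were mostly higher under IFN-γ. Of them, 21 were called higher and 2 lower in non-phagocytic, 25 and 0 in Treg-phagocytic and 19 and 7 in Tconv-phagocytic cells, with medians of 0.39, 0.49 and 0.27 against -0.02, -0.07 and -0.03 over all genes. Of all genes tested, 25.5% were called higher and 25.9% lower in non-phagocytic, 17% and 21.3% in Treg-phagocytic and 25.9% and 26.6% in Tconv-phagocytic cells. Atp5e stood at 1035 against 519 TPM and Uqcrb at 268 against 136 TPM in non-phagocytic libraries, rises of 1.28 and 1.26, while Uqcrc1 fell by 0.12. In IFN-γ Treg-phagocytic against Tconv-phagocytic libraries 11 of the 35 were called higher and 0 lower, where 3.87% of all genes were called higher and 7.83% lower. Among them was Cox4i1 (1283 against 1040 TPM, 0.39).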

How the data were processed

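The deposited tables, 1 per library, give TPM per gene, which the authors made before deposit; the submitters' processing notes name STAR, RSEM and mm10 without their order or settings. Per the labels, poly(A) RNA was made into strand-specific libraries. Annotation and sequences are from GENCODE vM21 on GRCm38. Files of 28 libraries held 55487 gene identifiers, 0 of 378 library pairs were identical, and values of different libraries were scaled by trimmed means of ratios (30% of ratios and 5% of levels trimmed). The genes that reached 1 TPM in 4 or more libraries were tested with limma 3.58.1 in R 4.3.3 (mean-variance trend) on log2(scaled TPM + 1), on the libraries of the groups compared alone, without a replicate block, with Benjamini-Hochberg adjustment over all 13631 genes, called at an adjusted p under 0.05. The fold change understates changes of low genes. Counts were not analysed here, so no interval on depth is given. The test was checked on simulated data.

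All 37 mitochondrial genes are reported. Of the other lists, at most 4 called genes were named per comparison, the 2 that rose most and the 2 that fell most. Rn7sk outside the cytokine comparisons, Rn7s1 and Rpph1 were chosen after their values were seen. The members and lists were chosen with earlier results of these data known. Same-numbered libraries were checked for pairing and their deviations correlated only weakly (-0.030 to 0.085), so numbers were not used as pairs. The same-numbered library was still the best match for 3 of 4 libraries in IFN-γ Treg against Tconv and in both comparisons with M0. In the other comparisons it was the best match for 0 to 2 of 4. Adding the nuclear copy, mt TPM plus copy TPM times copy length over gene length, was chosen after seeing the data.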

Additional observations from a re-analysis of the deposited data

Results flagged for a closer look

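The step from Tconv-phagocytic to Treg-phagocytic libraries differed between the cytokines for 4 mitochondrial genes by limma's interaction term. It was -1.90 for mt-Rnr1 and -1.74 for mt-Rnr2 (IFN-γ step less IL-10 step, log2), which fell in this step under IFN-γ and rose under IL-10. It was -0.27 for mt-Co1 and -0.25 for mt-Atp8, which were lower in the Treg-phagocytic libraries under IFN-γ and were not called under IL-10.

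In 3 of 147 groups of 4 values for the coding and rRNA genes, with and without nuclear copies, 1 library stood apart from the other three by Dixon's test, where chance alone sets apart about 5%. All 3 were in the IFN-γ Treg-phagocytic group. mt-Nd4 stood at 1766 TPM in the library Ax647-1 against 1704 to 1713 TPM in the others. mt-Cytb stood at 4157 TPM in BV421-2 against 4084 to 4086 TPM, and mt-Co1 with its copy stood at 9536 TPM in BV421-2 against 8877 to 8967 TPM.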

How the results depend on the processing

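Numbers of called coding genes (of 13) moved as follows. With no filter on low values they were 1 for IFN-γ Treg against Tconv, 1 for IFN-γ Treg against non-phagocytic, 1 for IL-10 Treg against non-phagocytic, 4 for IFN-γ against IL-10 in Treg-phagocytic cells, 5 for IL-10 against M0 and 1 for the interaction. With a variance weight per group they were 1 for both IFN-γ Treg comparisons, 2 for IL-10 Tconv against non-phagocytic, 4 for IFN-γ against IL-10 in Treg-phagocytic cells and 1 for the interaction. With a log2 fold change of at least 0.5 required they were 1 and 0 for IFN-γ Treg against Tconv and non-phagocytic, 5, 2 and 3 for IFN-γ against IL-10 in non-phagocytic, Treg-phagocytic and Tconv-phagocytic cells, 4 and 2 for IFN-γ and IL-10 against M0 and 0 for the interaction. IFN-γ Treg against Tconv gave 0 with either dye alone. TPM over nuclear genes only gave 7 for IFN-γ Treg against non-phagocytic, GC and length correction gave 5 for IL-10 Treg against non-phagocytic, the nuclear copies gave 11 for IFN-γ against IL-10 in Treg-phagocytic cells, and median-of-ratios scaling and 1 model of all libraries each gave 1 for the interaction.

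With 1 library left out, called coding genes ran from 1 to 4 (IFN-γ Treg against Tconv), 3 to 4 (Treg against non-phagocytic) and 0 to 0 (Tconv against non-phagocytic). Under IL-10 they ran from 0 to 0, 1 to 3 and 1 to 1 in the same order. IFN-γ against IL-10 gave 8 to 10, 5 to 9 and 7 to 7 (non-phagocytic, Treg, Tconv), IFN-γ against M0 9 to 11, IL-10 against M0 6 to 10 (6 without M0 library 4 or IL-10 non-phagocytic library 1) and the interaction 1 to 2.

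GC and length correction reversed mt-Atp8 to 0.32 and 0.18 in IFN-γ Treg against Tconv and non-phagocytic and to 0.28 in the interaction. In IFN-γ against IL-10 non-phagocytic cells it gave mt-Nd1 -0.17, mt-Nd2 -0.60, mt-Co1 -0.12, mt-Atp8 -0.44, mt-Nd4 -0.58 and mt-Cytb -0.33, in Treg-phagocytic cells mt-Nd1 -0.14, mt-Nd2 -0.33, mt-Atp8 -0.25 and mt-Cytb -0.30, and in Tconv-phagocytic cells mt-Nd1 -0.30, mt-Nd2 -0.59, mt-Co1 -0.22, mt-Atp8 -0.53, mt-Nd4l -0.58 and mt-Cytb -0.44. In IFN-γ against M0 it gave mt-Nd1 -0.44, mt-Co1 -0.30 and mt-Atp8 -0.79. With no scaling, IFN-γ against IL-10 gave mt-Nd2 -0.15, mt-Nd4 -0.22 and mt-Cytb -0.020 in non-phagocytic and mt-Atp8 -0.13 and mt-Cytb -0.13 in Treg-phagocytic cells, and IFN-γ against M0 gave mt-Co1 -0.080 and mt-Atp8 -0.030. TPM over nuclear genes only gave mt-Nd2 -0.10 and mt-Nd4 -0.16, mt-Atp8 -0.11 and mt-Cytb -0.12, and mt-Co1 -0.034 in the same order. Adding the copies, chosen after seeing the data, gave mt-Nd3 0.25 and mt-Nd4l -0.67 in non-phagocytic, mt-Nd3 0.25 in Treg-phagocytic and mt-Nd4l -0.76 in Tconv-phagocytic cells, and mt-Co2 -0.16, mt-Atp6 -0.23 and mt-Co3 -0.21 in IL-10 against M0. The cause of these reversals was not tested.

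The replicate block gave 1 call for IFN-γ Treg against Tconv, 0 for IL-10 and 8, 8 and 7 for IFN-γ against IL-10 (non-phagocytic, Treg, Tconv). It gave 10 and 8 for IFN-γ and IL-10 against M0 and, in a fit added after seeing the data, 1 for the interaction. Deviations of same-numbered libraries correlated only weakly. With GC and length correction added to the block, the reversed values were those of the correction alone. No paired analysis was possible for phagocytic against non-phagocytic libraries because they share no library labels. Of the planned single-gene values, 3483 kept direction and side of the threshold, 239 lost the call, 64 gained one and 54 reversed. TPM carry no counts, so depth, lowest under IFN-γ, limits the precision of low values by an unknown amount.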
